A study of Mus musculus with 39 samples.

Results

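Expression of the enzymes and regulators of de novo lipogenesis was followed in cells of mouse brown fat over a diet time course. The 9 genes were Acly, Acaca, Acacb, Fasn, Me1, Thrsp, Mlxipl, Srebf1 and Pnpla3, chosen by name as genes of this pathway and found through the gene symbols of the deposited fold-change table. They are 9 of 29411 gene symbols and were measured by 13 of 40628 probes (Acaca by 4 probes, Fasn by a pair, the others by a single probe). Each gene was read from its brightest probe, and all 9 of these probes passed the filter of at least 6 arrays well above background, as did 34035 probes in all. A level is given as the log2 intensity of the probe minus the 75th percentile of its array, so a level of 0 equals that percentile. Levels of different probes were not set against each other, because probes differ in how brightly they respond.

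The samples were 39 Agilent arrays of 1 colour, with 1 array for each diet and time label. All mice were C57BL/6J, a common inbred laboratory strain, put on their diets at weaning. The LFC mice received a low fat diet with 10% of its energy as fat (10 arrays, Day 1 to Week 18). The HFC mice received a high fat and high sucrose diet with 60% of its energy as fat (11 arrays, the same time labels and Week 6). HF5, HF20 and HF75 mice received that second diet together with 5, 20 or 75 µg of KAL-1, a plant-based formulation (6 arrays each, Week 3 to Week 18). The labels call the samples infiltrating macrophages, that is stromal vascular cells, of brown fat. The design text speaks of 3 biological replicates, while the files hold 1 array per diet and time label, and whether animals were pooled was not given in the sources used here. Since no diet was repeated under a time label, the diet tests below measure against the spread left after additive effects of diet and time label. The dose slope is measured in the same way, with dose rank in place of diet. For the time slope the spread is that left after diet and days on diet, and correlations were tested by permuting arrays.

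De novo lipogenesis turns surplus carbohydrate into fatty acid. Citrate leaves the mitochondrion and Acly splits it into acetyl-CoA, Acaca and Acacb carboxylate acetyl-CoA to malonyl-CoA, Fasn joins these units into palmitate, and Me1 supplies part of the NADPH that Fasn consumes. Transcription of these genes is known to be driven by Srebf1, which answers to insulin, and by Mlxipl (ChREBP), which answers to glucose. Thrsp (Spot 14) is a small protein that promotes the pathway, and Pnpla3 is a lipid droplet protein that both transcription factors are known to induce. Brown fat, which burns fatty acids for heat, is among the tissues in which the pathway is active.

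Of the 9 genes, all had an entry among the promoters of RefSeq (build GRCm38.p6), with 13 promoter windows of 250 bases before and 50 bases after a start site. Printed here are those of the enzyme that differed most clearly between the diets (Acly), of the enzyme that makes the product (Fasn) and of the regulator Mlxipl, because the genes moved together across arrays. Each is written 5′ to 3′ on the strand of the gene.
Acly, chr11:100527951-100528250, minus strand: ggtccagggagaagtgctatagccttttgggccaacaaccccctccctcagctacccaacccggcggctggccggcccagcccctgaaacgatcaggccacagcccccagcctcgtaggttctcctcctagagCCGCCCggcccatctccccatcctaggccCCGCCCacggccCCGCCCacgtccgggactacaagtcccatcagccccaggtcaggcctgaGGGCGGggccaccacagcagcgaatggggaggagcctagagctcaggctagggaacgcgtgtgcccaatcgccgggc
Fasn, chr11:120824498-120824797, minus strand: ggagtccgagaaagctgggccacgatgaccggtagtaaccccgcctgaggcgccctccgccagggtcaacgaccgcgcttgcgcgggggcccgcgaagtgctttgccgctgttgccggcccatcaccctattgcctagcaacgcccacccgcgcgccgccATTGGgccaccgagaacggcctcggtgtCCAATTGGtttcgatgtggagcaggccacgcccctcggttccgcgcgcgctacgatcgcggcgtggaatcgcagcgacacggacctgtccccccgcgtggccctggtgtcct
Mlxipl, chr5:135089640-135089939, plus strand: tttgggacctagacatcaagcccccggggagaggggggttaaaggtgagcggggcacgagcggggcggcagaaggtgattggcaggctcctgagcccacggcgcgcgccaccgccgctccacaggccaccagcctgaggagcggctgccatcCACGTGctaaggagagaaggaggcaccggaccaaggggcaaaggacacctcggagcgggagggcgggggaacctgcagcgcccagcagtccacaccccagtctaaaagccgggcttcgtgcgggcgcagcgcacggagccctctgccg
The capitals mark GGGCGG (a GC box) in Acly, CCAAT in Fasn and CACGTG (an E-box) in Mlxipl, each searched on both strands, so that CCGCCC and ATTGG are the same motifs read on the other strand. In Fasn the second and the third match overlap in a palindrome. Acly held 4 GC boxes, at -117, -88, -76 and -27 from the start, and 3 or more were present in 10.7% of 32851 promoters. Fasn held 3 CCAAT matches, at -90, -62 and -59, and 3 or more were present in 3.37% of promoters. CCAAT itself was found in 9 of the 13 windows, from every gene except Acaca, and in 37.4% of all promoters. The E-box CACGTG was found in 1 of the 13 windows, at -98 of this Mlxipl promoter, and in 7.15% of all promoters. A match describes these letters and is no evidence of binding.

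Before the genes are described, some arrays need naming. The titles of 9 arrays carry BA or BAT (HFC Day 1, LFC Day 6, HF5 Week 9, HFC Week 9, LFC Week 12, HF20 Week 12, HF5 Week 15, HF75 Week 15 and LFC Week 18), that is 3 of LFC, 2 each of HFC and HF5, and 1 each of HF20 and HF75. Most of the other titles carry B-A or B_A, written with a separator, and all the others are called untitled below. What the separator means was not given in the sources used here. Nor was it given whether the 9 arrays hold whole brown fat in place of its stromal vascular cells, so results are also given without them. Some arrays had many outlier spots, with shares of 71.4% (HF20 Week 15), 18.6% (HF5 Week 12) and 11.1% (HFC Week 12), and the HFC Week 12 scanner file correlated with its deposited column at only 0.831, where the other arrays gave 0.994 or more. For Day 14 the scanner files of LFC and HFC fit the deposited table only with the diets exchanged (r = 0.995). Adipocyte markers were well above background on all 39 arrays (Adipoq, Plin1 and Fabp4, and the brown fat genes Ucp1 and Cidea), as were the macrophage genes Emr1, Cd68, Csf1r and Mrc1, while Itgam was so on 28. In such bulk samples fewer cells of a type and less RNA per cell cannot be told apart.

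The main comparison was that of the high fat and high sucrose diet with the low fat diet. All 9 genes had a fitted level below that of LFC, where 45.8% of all probes did, and the median over the 9 genes was -1.86 on the log2 scale against 0.04 over all genes tested. Of the 9 genes, 7 were lower by at least 1 on the log2 scale, as were 0.45% of probes, and the same 7 had an unadjusted p under 0.05 with a lower level in HFC, as had 0.855% of probes. No probe passed an adjusted p of 0.05 in limma (0 of 34028, that is 0% of probes, with 959 at an unadjusted p under 0.05), so none of the 9 genes did. In none of them did the groups lie wholly apart, and of 29410 probes compared none lay wholly lower in HFC (0%). The genes were chosen with earlier results on these arrays known, so these counts describe them and are no independent test.

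Acly, the first enzyme, showed the smallest p of the 9 genes. Its levels ran from 1.51 to 5.94 with a median of 3.58 on the LFC arrays and from 0.35 to 2.87 with a median of 0.90 on the HFC arrays. No HFC array reached the LFC median, although the groups overlapped. The fitted difference was -2.58 ± 0.49 (SE), a level 5.97-fold lower, with an adjusted p of 0.109 (limma, rank 4 of 34028 probes). HFC was lower at 9 of 10 shared time labels, and Week 18 alone had the opposite sign, with 0.92.

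Acaca, the cytosolic carboxylase, ran from 0.01 to 4.74 (median 0.88) in LFC and from -2.85 to 3.21 (median -1.39) in HFC. Of the 11 HFC arrays 9 lay below every LFC array, and the other arrays, Week 6 and Week 9, lay among the highest. The fitted difference was -2.37 ± 0.88 with an unadjusted p of 0.0119. The remaining Acaca probes were dimmer and did not all follow, with fitted differences of -1.48 (well above background on 32 arrays), -0.39 (17 arrays) and 0.09 (28 arrays).

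Acacb, the carboxylase of the mitochondrial surface whose malonyl-CoA restrains fatty acid oxidation, was near the limit of detection and well above background on 17 of 39 arrays, among them 5 of 10 in LFC and 5 of 11 in HFC. LFC levels ran from -5.95 to -1.52 (median -3.59) and the 9 HFC values left after flagged spots were dropped from -5.98 to -0.51 (median -4.09). The fitted difference of -0.31 ± 0.73 was smaller than its error, and HFC was lower at 3 of 8 time labels. These arrays therefore give no direction for Acacb.

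Fasn, the synthase, ran from 5.58 to 9.08 (median 7.88) in LFC and from 3.78 to 7.44 (median 5.74) in HFC. This bright spot was saturated on 9 arrays, 3 of LFC and 2 of HFC among them, and a saturated value is a lower bound. HFC was lower at all 9 shared labels at which the sign is known, and at Week 9 the HFC spot alone was saturated, so the measured -2.91 has no settled sign. At the 6 labels with no saturated spot the difference ran from -3.18 at Day 6 to -1.34. The fitted difference was -2.06 ± 0.50 (unadjusted p 0.000294, adjusted p 1.00, rank 10), and -2.12 ± 0.65 (unadjusted p 0.00418) with saturated values left out. The second, dimmer Fasn probe, saturated on 1 array, gave -2.49 ± 0.77 and was lower in HFC at 8 of 9 labels, with 0.96 at Week 9.

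Me1, the NADPH-forming malic enzyme, followed the same course. LFC levels ran from 3.03 to 5.80 (median 4.39) and HFC levels from 0.34 to 4.19 (median 1.97). The fitted difference was -2.33 ± 0.59 (unadjusted p 0.000484, rank 15), and HFC was lower at all 10 shared labels, by 0.95 at Week 18 up to at least 4.17 at Week 12, where the LFC spot was saturated. Measured values were lower at all 10 labels in 0.469% of probes. For Acly and Me1 all 11 HFC arrays lay below the LFC median, and for Fasn the 9 HFC arrays that were not saturated did, where measured values gave this for 0.949% of probes.

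Among the regulators the differences were smaller or less even. Thrsp ran from 4.42 to 7.47 (median 5.56) in LFC and from 1.40 to 6.43 (median 4.35) in HFC, with a fitted difference of -1.25 ± 0.51 (unadjusted p 0.0218). Mlxipl ran from -0.16 to 5.40 (median 1.75) in LFC and from -1.93 to 4.91 (median -0.66) in HFC, with -1.86 ± 0.90 (unadjusted p 0.0476). Mlxipl was lower in HFC at 9 of 10 shared labels, all but Week 9 (3.01). The Thrsp spot was saturated on 7 arrays, HFC Week 6 (the highest HFC level) and HFC Week 9 among them, so its sign at Week 9 is not settled, and it was lower at 8 of the other 9 labels, all but Day 14 (0.06). With saturated values left out its fitted difference was -1.32 ± 0.49.

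Srebf1, by contrast, was nearly alike in the diets by its medians, 3.18 in LFC (2.82 to 5.88) and 3.04 in HFC (1.96 to 5.74). Its fitted difference was -0.49 ± 0.62 (unadjusted p 0.432), an error larger than the estimate, although HFC was lower at 8 of 10 labels, as were 7.73% of probes at 8 or more. The single probe does not separate the Srebf1 transcripts, for which RefSeq gives 3 start sites. Pnpla3 ran from -0.23 to 5.56 (median 1.87) in LFC and from -1.58 to 4.87 (median 0.42) in HFC, with -1.62 ± 0.59 (unadjusted p 0.0105), and was lower at 9 of 10 labels. Measured values were lower at 9 or more of 10 labels for 7 of the 9 genes, Fasn and Thrsp with their unsettled label included, and for 2.13% of probes.

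**Figure D1:**
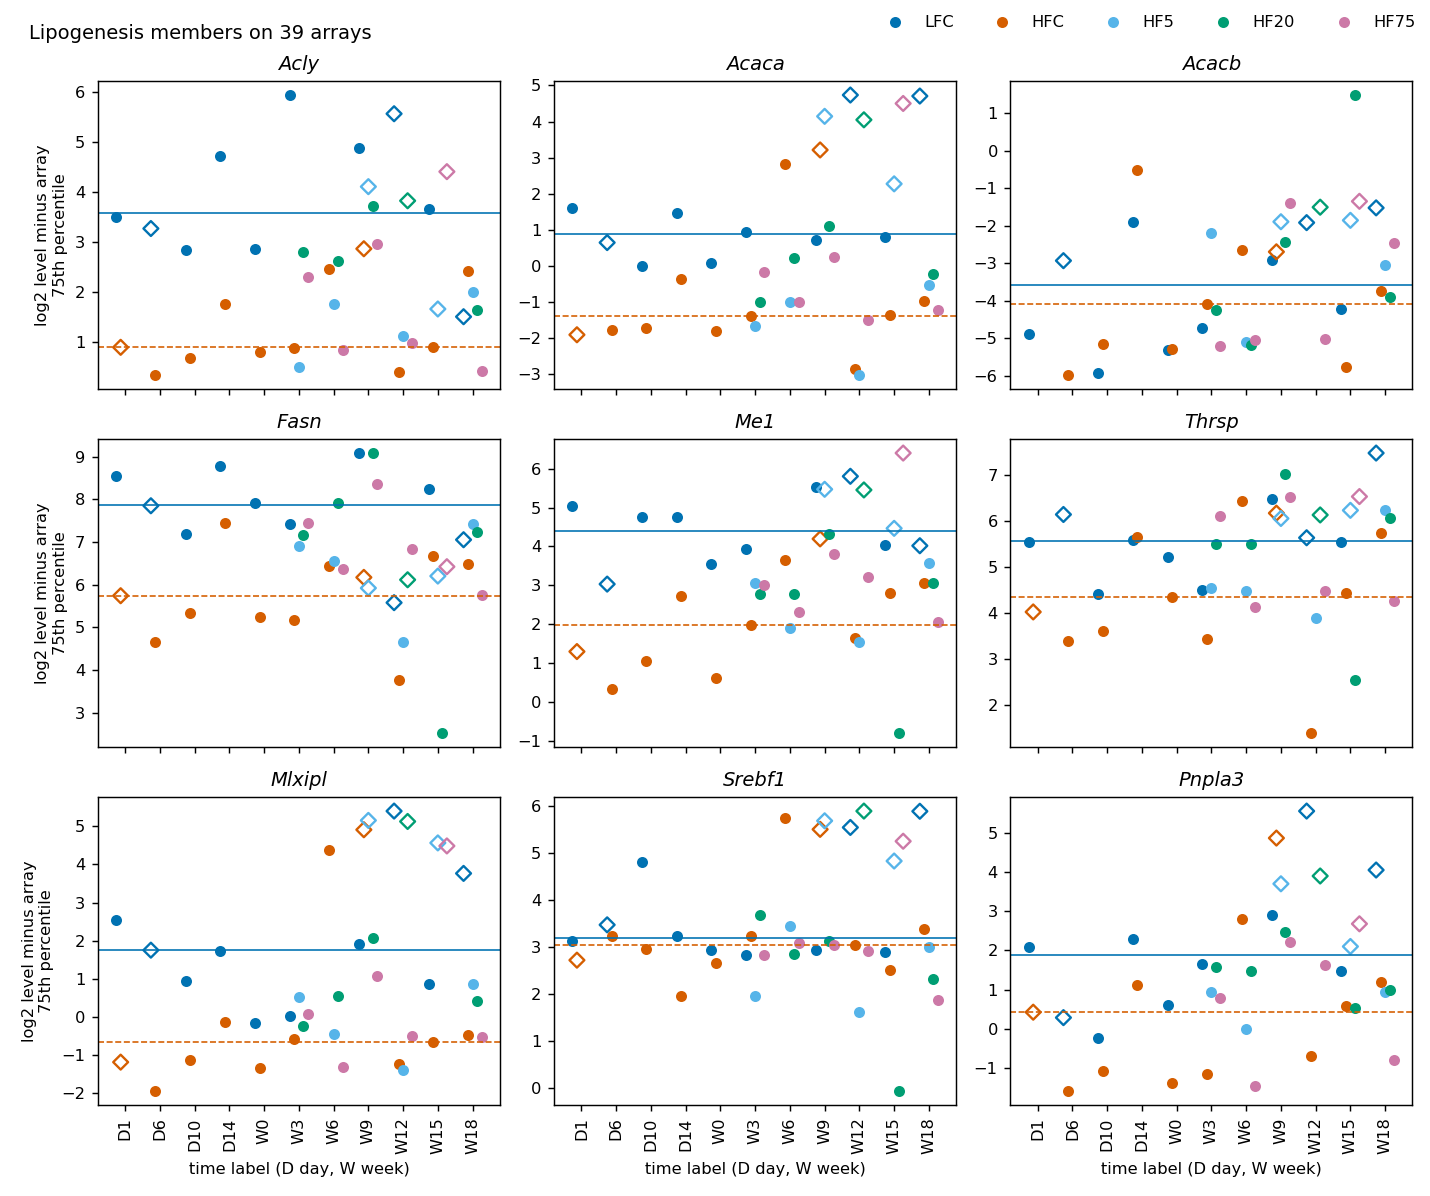
Level of each gene (log2 intensity minus the 75th percentile of the array, vertical axis) on each array by time label, coloured by diet, with open diamonds for arrays titled BA or BAT and horizontal lines at the LFC median (solid) and the HFC median (dashed). The HFC points of Acly and Me1 all lie below the LFC median, and those of Fasn do as measured, with HFC Weeks 6 and 9 saturated. HFC Week 6 and the diamonds of Week 9 and later stand high for Acaca, Mlxipl and Srebf1, while HFC Day 1 and LFC Day 6 do not.

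**Figure D2:**
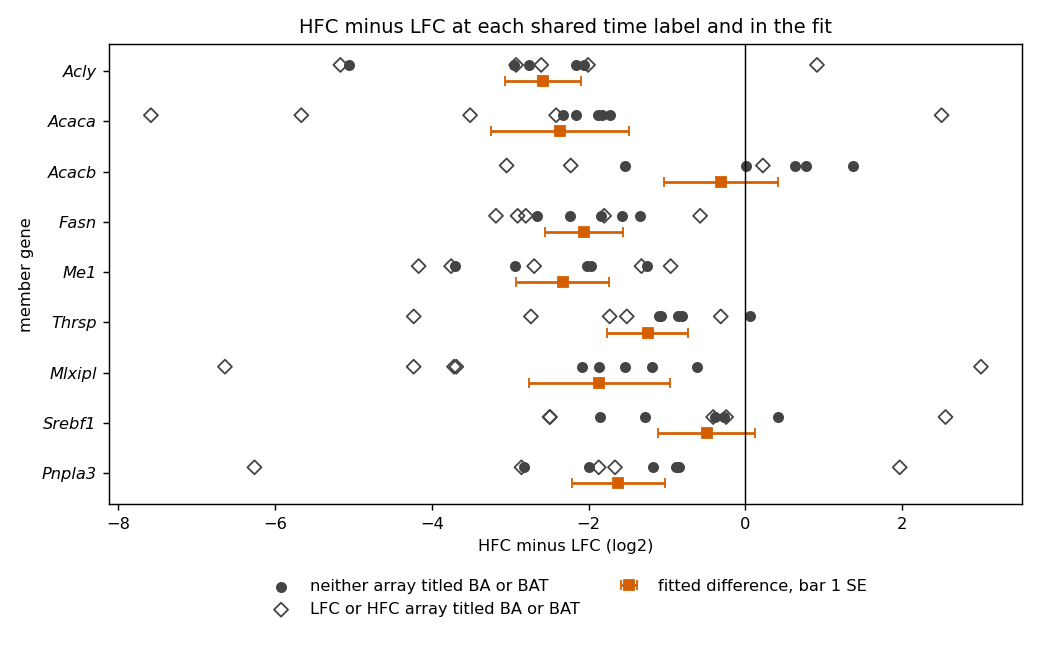
HFC minus LFC (log2, horizontal axis) for each gene at each shared time label (points, open where an array of either diet is titled BA or BAT) and as the fitted difference with a bar of 1 SE (squares). Me1 is below 0 at all 10 labels, as is Fasn by measured values (its Week 9 point rests on a saturated HFC spot), and the open points of Acaca, Mlxipl and Pnpla3 spread from -7.59 to 3.01.

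The median of HFC minus LFC over the genes ran from -4.70 to 0.22 at labels with a titled array. At the other labels it ran from -1.97 to -1.34. At Week 12 the LFC array was titled and the median over the genes was -4.70, with Acaca at -7.59, Mlxipl at -6.64 and Pnpla3, its LFC spot saturated, at -6.26. The HFC array of that label had 11.1% outlier spots and the lowest mean of the genes (-1.40 SD units). It also had the lowest brown adipocyte marker mean (-2.76) and the highest macrophage marker mean (2.46). The part of either array in these differences was not tested. At Week 9 the HFC array was titled, and the median was 0.22 (over all genes -0.88), with Mlxipl at 3.01, Srebf1 at 2.56, Acaca at 2.51 and Pnpla3 at 1.97. Acly (-2.01) and Me1 (-1.32) were below LFC there too.

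At the 5 labels where neither array was titled (Weeks 0, 3 and 15 with Days 10 and 14) the differences were more even, and 6 genes were lower at all 5 labels, as were 4.35% of probes. Their means over labels were -3.00 ± 1.21 (SD, n = 5) for Acly, -2.38 ± 0.95 for Me1, -1.98 ± 0.25 for Acaca, -1.93 ± 0.52 for Fasn, -1.55 ± 0.85 for Pnpla3 and -1.46 ± 0.58 for Mlxipl. Thrsp (-0.76 ± 0.47) and Srebf1 (-0.68 ± 0.89) were lower at 4 of 5, and Acacb (0.25 ± 1.11) at 1 of 5. The LFC Day 10 array behind these means had a brown adipocyte marker mean of -1.76, against an LFC median of 1.56. The part of that array in the means was not tested. When all 9 titled arrays were left out of the fit, Acly kept -2.73, Me1 -2.20 and Fasn -1.94, while Mlxipl moved to -0.92, Acaca to -1.53, Pnpla3 to -1.17 and Thrsp to -0.61. The genes with an unadjusted p under 0.05 then numbered 4 in place of 7. The share of all probes in that fit was not set beside this count, which describes these genes alone.

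Scan date was examined as a batch. At 6 shared labels the LFC and HFC arrays were scanned on the same date, and there 6 genes had lower values at every label, as had 3.69% of probes. The means at these labels were -1.63 for Fasn, -2.51 for Me1, -3.47 for Acaca, -2.93 for Mlxipl, -2.34 for Pnpla3 and -1.46 for Srebf1, with Acly at -2.36 and lower at 5 of 6. At the other 4 labels the means were -2.78 for Fasn, -2.44 for Me1, -3.15 for Acly and -1.44 for Acaca, but 0.58 for Srebf1. Both means were below 0 for every gene except Srebf1, with saturated values included. With the Day 14 diets exchanged, as the deposited table has them, the fitted differences were -2.01 for Acly, -1.80 for Fasn and -1.94 for Me1.

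The second question was whether KAL-1 moved the genes from their level on the high fat diet. None of the 9 genes had even an unadjusted p under 0.05 against HFC at any dose, where 1.46% of probes did for HF5, 2.67% for HF20 and 3.56% for HF75. The fitted differences leaned above HFC, for 8 of 9 genes in HF5 (47.2% of probes), 8 in HF20 (48.6%) and 6 in HF75 (53.9%), with medians of 0.60, 0.99 and 0.27. Brown adipocyte markers were higher than HFC as well (11, 10 and 11 of 12, medians 1.05, 0.78 and 0.80), as were 9 of 9 neutrophil markers at each dose, and endothelial markers were lower (8, 8 and 7 of 8). The part of these cell types in the values of the 9 genes was not tested. The nearest to the threshold were Acly in HF20, with 1.29 ± 0.64 (unadjusted p 0.0544), and Fasn in HF75, with 1.21 ± 0.62 (unadjusted p 0.0611). With saturated values left out these were 1.41 ± 0.63 (unadjusted p 0.0335, adjusted p 0.991) and 0.77 ± 0.81. Acly levels ran from 0.51 to 4.11 (median 1.71) in HF5, 1.65 to 3.83 (median 2.81, 5 arrays) in HF20 and 0.43 to 4.41 (median 1.64) in HF75. Those of Fasn were 4.65 to 7.42 (median 6.38), 2.53 to 9.08 (median 7.20) and 5.76 to 8.36 (median 6.63). As measured, every HF75 array lay above the HFC median of Fasn, as it did for Me1. In HF20 this held for Pnpla3, and for Acaca, Acly and Mlxipl on the 5 arrays measured. For the other genes and doses at least 1 array lay no higher than the HFC median. The groups overlapped throughout, and no share over all probes was set beside this.

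This lean did not hold across labels or arrays. Without the titled arrays the medians over the genes were -0.15 (HF5), 0.37 (HF20) and -0.13 (HF75). Leaving out single time labels moved the Fasn difference of HF20 minus HFC between 0.68 and 2.04, from 1.02 in the main fit. The 2.04 came without Week 15, whose HF20 array had 71.4% outlier spots. At Week 6 the genes stood below HFC instead, with medians of -2.30 (8 of 9 genes, 38.7% of probes), -1.34 (7 of 9, 39.2%) and -2.40 (9 of 9, 42.2%). The HFC Week 6 array, although not titled, carried Srebf1 at 5.74, Mlxipl at 4.38 and Acaca at 2.84, near the titled arrays, and was the eighth highest of 39 in the mean of the genes. At Week 12 HF20, itself titled, was above HFC for all 8 genes measured on both arrays (median 4.21), against an HFC array that had the lowest mean of all.

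**Figure D3:**
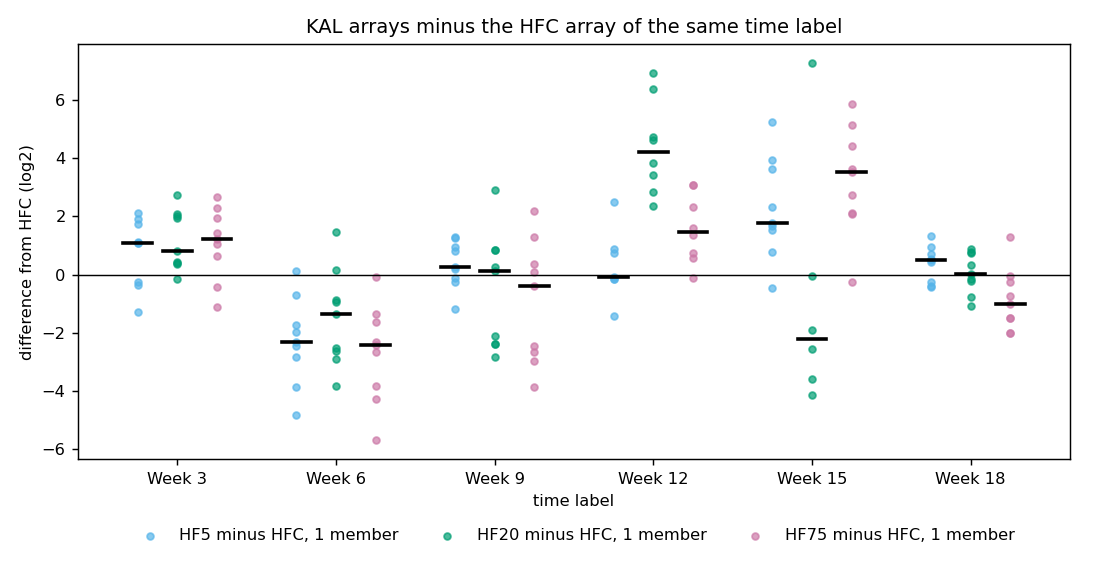
Difference of each KAL-1 array from the HFC array of the same time label (log2, vertical axis) by time label, with 1 point per gene and a black bar at the median over the genes. All 3 doses lie below HFC at Week 6, and the medians at the other labels run from -2.23 to 4.21.

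Against LFC the KAL-1 arrays mostly remained lower. The fitted differences were below 0 for 8 of 9 genes in HF5 (48% of probes), 8 in HF20 (47.1%) and 9 in HF75 (44.9%), with medians of -1.22, -1.11 and -1.46. At an unadjusted p under 0.05 with a lower level stood 3 genes in HF5 (3.42% of probes), 1 in HF20 (4.88%) and 2 in HF75 (3.16%). They were Acly in HF5 (-2.39 ± 0.62) and HF75 (-2.26 ± 0.62), Fasn (-1.44 ± 0.64) and Me1 (-1.59 ± 0.76) in HF5, Me1 in HF20 (-1.995 ± 0.759) and Pnpla3 in HF75 (-2.09 ± 0.76). None passed after adjustment (limma, smallest adjusted p 0.330, for Acly in HF75), and 0% of probes did in these comparisons. With saturated values left out Fasn (-1.54 ± 0.94) and Me1 in HF5 had an unadjusted p above 0.05, and that of Acly, Me1 in HF20 and Pnpla3 stayed under it. The comparisons share the LFC or the HFC arrays and are not independent of each other.

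Over the 5 labels with all diets, LFC had the highest mean for 8 of 9 genes (24.6% of probes) and HFC the lowest for 8 of 9 (18% of probes), the exceptions being Acacb, highest in HF20, and Srebf1, lowest in HF20. For Acly the order of means was LFC 4.31, HF20 3.00 (4 arrays, Week 15 missing), HF75 2.22, HF5 1.89 and HFC 1.50. The Fasn means include saturated arrays in every diet, and the HF20 mean of 6.43 was 7.40 without HF20 Week 15, the array with 71.4% outlier spots. Without that time label the fitted Fasn difference was 2.04 for HF20 minus HFC, in place of 1.02, and -0.03 for HF20 minus LFC, in place of -1.04. No KAL-1 diet differed from LFC or HFC after adjustment, and the doses were not tested against each other. No gene followed the rank of the dose among HFC, HF5, HF20 and HF75 (smallest unadjusted p 0.114, for Fasn at 0.36 per rank), where 7.04% of probes had an unadjusted p under 0.05.

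Over time the slopes in LFC and HFC together were above 0 for every gene except Fasn (-0.04 per doubling of days on diet), with a median of 0.21 against -0.05 over all genes. Without the titled arrays that median was 0.07 and no gene had an unadjusted p under 0.05. Only Pnpla3 had an unadjusted p under 0.05, with 0.37 ± 0.17 per doubling (p 0.0372, adjusted p 0.390), where 4.06% of probes did so with a slope above 0. The difference between the diets was not detectably larger early or late for any of the genes (0 of 9 at an unadjusted p under 0.05, 2.36% of probes). Me1 had the largest estimate, with a late difference 1.09 ± 0.69 nearer to 0 than the early difference.

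The genes moved together from array to array. The median Pearson correlation over the 36 pairs of genes was 0.638 (Spearman 0.606), against 0.0733 over all pairs of 24669 genes. Among the 8156 genes well above background on every array the median was 0.267, and for the 8 members among them 0.685. Pairs with r of 0.5 or more made up 72.2% of the gene pairs and 15.6% of all pairs. Among genes well above background on every array they made up 27.1% of pairs, and 82.1% for the 8 members. In permutation tests with Benjamini-Hochberg adjustment over the 36 pairs, 27 passed 0.05 by Pearson and 33 by Spearman. By Pearson, 17 stood at the smallest p that the permutations can give (1e-05). Other gene pairs were not tested in this way, so these counts have no share over all pairs beside them. Leaving out in each pair the 2 arrays farthest from the median of the first gene gave a median of 0.667. With the effects of diet and time label removed the median was 0.587, and with saturated values left out it was 0.711.

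Acaca, Mlxipl, Pnpla3 and Me1 correlated with each other at 0.758 or more. Acaca and Mlxipl correlated at 0.945 (Spearman 0.931, permutation p 1e-05), and of 13475 genes Mlxipl was the closest to Acaca. Mlxipl correlated at 0.868 with Pnpla3 and at 0.829 with Srebf1, while Srebf1 and Pnpla3 correlated at 0.617. Acly and Me1 formed a further close pair (0.802), and 6 of the 7 other well measured members stood in the top 1% of genes by correlation with Acly. Acly had the most. The count was 3 for Me1, 2 for Pnpla3 and 1 each for Acaca, Mlxipl and Fasn (saturated values included). It was 0 for Thrsp, Srebf1 and Acacb. Acacb had a median r of 0.316. The bright Fasn probe had a median r of 0.283 as measured, with 0.194 to Mlxipl and 0.256 to Acaca, but these values hold its 9 saturated arrays.

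Left out, those arrays gave Fasn a median r of 0.831, with 0.911 to Acaca, 0.895 to Me1, 0.884 to Thrsp, 0.882 to Mlxipl and 0.780 to Acly (29 or 30 arrays). The second Fasn probe, with 1 saturated array, had 0.953 with Acaca and 0.940 with Mlxipl (36 arrays). Of the 9 saturated arrays 7 are titled BA or BAT, so leaving out the titled arrays also leaves out most of the saturated Fasn values, and it gave Fasn 0.893 with Me1 and 0.770 with Acaca. On the untitled arrays levels also correlated with the log2 75th percentile of the array, which is subtracted from each level. Fasn gave -0.645, Thrsp -0.611, Me1 -0.478, Mlxipl -0.094 and Acacb 0.053. The mean of the genes gave -0.468 there and 0.106 on all arrays. On all arrays single genes differed in sign, from -0.608 (Fasn, saturated values included) and -0.205 (Thrsp) to 0.511 (Mlxipl). Acaca gave 0.471 and Srebf1 0.381 there. The part of array brightness in the pair correlations was not tested. Srebf1 loosened without the titled arrays, to 0.163 with Pnpla3 and 0.508 with Mlxipl. By diet the median over pairs was 0.351 in LFC, 0.714 in HFC and 0.708 on the KAL-1 arrays, and whether these differ was not tested.

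**Figure D4:**
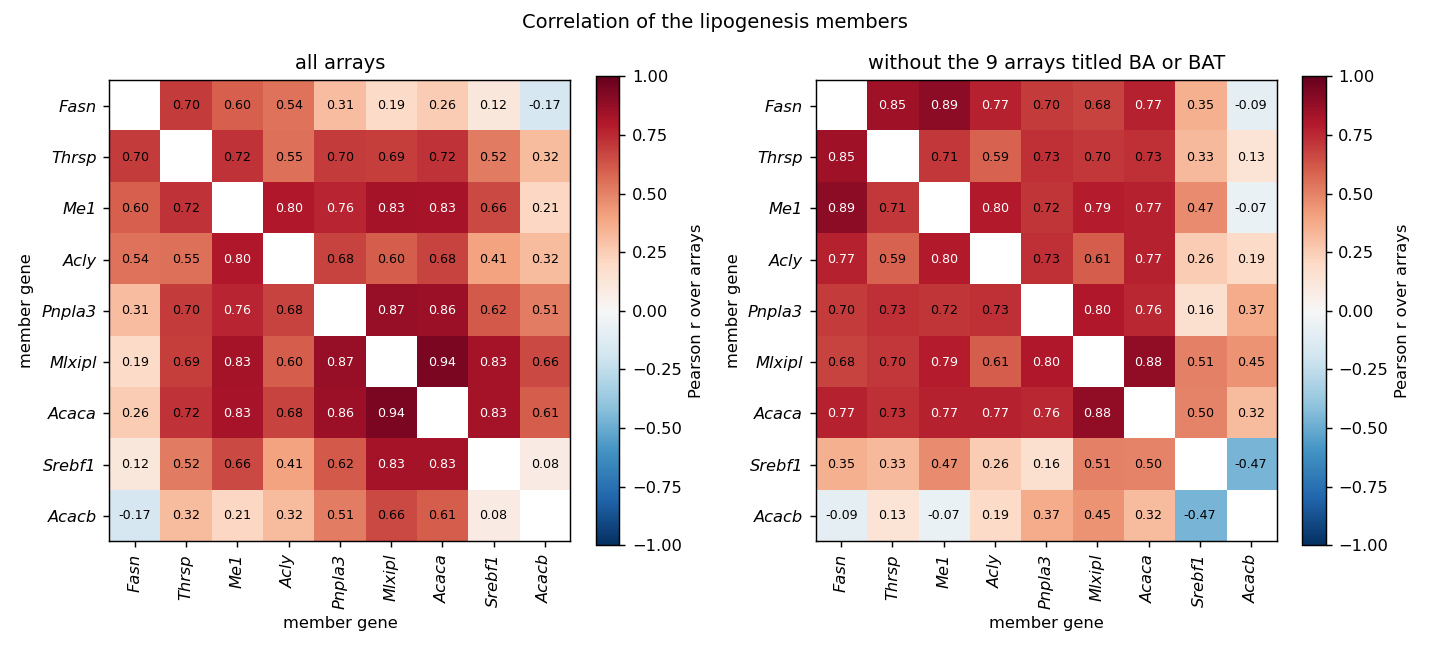
Pearson correlation over arrays for each pair of genes (colour and number), on all arrays (left) and without the 9 arrays titled BA or BAT (right). The left panel holds 9 saturated Fasn values, 7 of them on titled arrays, and Fasn correlates there at 0.26 with Acaca, against 0.77 on the right.

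The level of adipocyte markers moved with the genes. The mean of the standardised levels of the 9 genes correlated at 0.807 (Spearman 0.799) with the mean of 12 general adipocyte markers over the 39 arrays, at 0.796 without the 2 farthest arrays and at 0.689 on the 30 untitled arrays. The correlation was 0.674 with brown adipocyte markers and -0.429 with macrophage markers. Single genes ran from 0.830 (Mlxipl) and 0.793 (Thrsp) to 0.343 (Acly). The adipocyte marker mean ran from 3.11 to 5.65 (median 3.69) in LFC and from 2.33 to 5.20 (median 3.42) in HFC, so the groups overlapped. Of the 12 markers 10 had a fitted difference below 0 with a median of -0.31, none with an unadjusted p under 0.05. Of these markers 11 of 12 were well above background on every array. The 12 macrophage markers, 7 of them well above background on every array, had a mean of -1.05 to 1.31 (median 0.28) in LFC and -1.13 to 2.46 (median 0.61) in HFC.

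With the adipocyte mean as a covariate the fitted differences between HFC and LFC were -2.46 for Acly, -1.95 for Me1, -1.88 for Fasn, -1.75 for Acaca, -1.26 for Pnpla3, -1.18 for Mlxipl and -0.92 for Thrsp. Me1 then passed the threshold (adjusted p 0.0253, limma), and Acly did not (0.0623). The median correlation of the pairs dropped to 0.338 once the adipocyte mean was taken out, with Acaca and Mlxipl still at 0.862 and Acly and Me1 at 0.822.

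**Figure D5:**
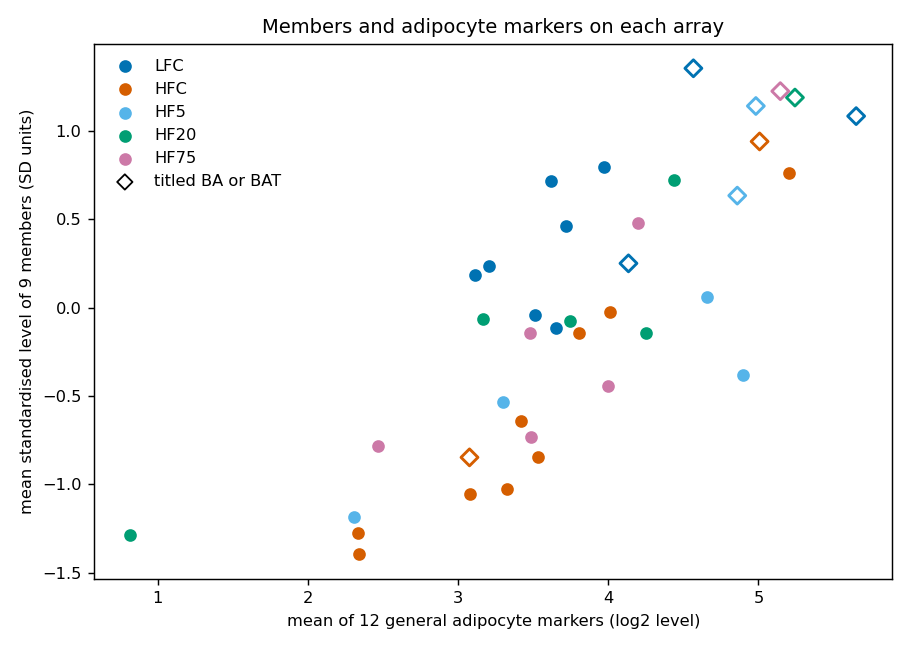
Mean standardised level of the 9 genes (vertical axis, SD units) against the mean level of 12 adipocyte markers (horizontal axis, log2) on each of the 39 arrays, coloured by diet, with open diamonds for arrays titled BA or BAT. The 6 highest arrays are all titled, and the lowest is HFC Week 12 (-1.40).

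Genes around the pathway showed the same direction less strongly. Of the genes that supply citrate and acetyl-CoA, 7 of 9 were lower in HFC (median -0.55), led by Acss2, which makes acetyl-CoA from acetate (-2.23 ± 0.69), and Slc25a1, the mitochondrial citrate carrier (-1.80 ± 0.78). Of the other NADPH-supplying genes 6 of 7 were lower (median -0.58), with Tkt at -1.59 ± 0.49 and Pgd at -1.03 ± 0.54. Downstream, 11 of 12 genes of elongation, desaturation and esterification were lower (median -0.77), with Scd1, the stearoyl-CoA desaturase, at -3.49 ± 0.63 and Elovl3 at -2.98 ± 0.83. The 22 upstream regulators and cofactors were mostly lower by little (20 of 22, median -0.28), with Insig1 at -1.16 ± 0.58 and Nr1h3 (LXR alpha) at -0.39 ± 0.54. The separate mitochondrial pathway of fatty acid synthesis had 6 of 6 lower with a median of -0.31. No gene of these lists passed the adjusted threshold, where 45.8% of all probes were lower. Of the cell type lists, 10 of 12 general adipocyte, 8 of 12 brown adipocyte, 6 of 8 endothelial and 6 of 8 skeletal muscle markers were lower, against 3 of 12 macrophage and 0 of 9 neutrophil markers.

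The genes most like the 9 members, by correlation with their mean among 13468 genes well above background on at least 30 arrays, were Gm7049 (0.930), Mod1 (0.924), Acot11 (0.924), LOC677317 (0.922), Gm6484 (0.911), Acss2 (0.906), Pgd (0.903), Pygl (0.901), Ptger3 (0.900) and Brp44l (0.898). Mod1 is an older symbol of Me1 and LOC677317 correlated with Me1 at 0.997, so both may read the same transcript. For single members the closest were Tkt for Fasn (0.844, saturated Fasn values included), Elovl6 for Acaca (0.934), Slc2a5, the fructose transporter, for Acly (0.817), Pdhb for Thrsp (0.898), Pgd for Mlxipl (0.948), Smpd1 for Srebf1 (0.949), Ndufaf4 for Pnpla3 (0.891) and Mel13 for Acacb (0.811).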

How the data were processed

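RNA from 39 mouse samples was measured on Agilent arrays of 1 colour, and samples were grouped by the diet and time labels. Per the file headers the deposited scanner files give each spot's processed intensity, from which the local background was already taken by the scanner software (Feature Extraction, version 9.1 in the submitters' notes), with no scaling between arrays. The authors' series table holds log2 values, shifted to the 75th percentile and set against the LFC array of the same time label, and was an alternative only. The log2 processed signal minus the 75th percentile of the array was taken, flagged outlier spots were dropped, spots of a probe were averaged, and probes well above background on at least 6 arrays were kept (34035). Diet and time label entered 1 additive fit in limma 3.58.1 (R 4.3.3), two-sided, with Benjamini-Hochberg adjustment over all probes at 0.05. The dose slope used the HFC and KAL-1 arrays of Week 3 to Week 18, and the time slope and the early and late comparison the LFC and HFC arrays. Correlations had 100000 permutations per pair. The fit was tested on simulated data. Python 3.11.15 with numpy 2.4.6, pandas 2.3.3 and matplotlib 3.10.9 did the rest.

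Arrays have no read depth, and their number and the signal limit the precision. The 75th percentile ran from 18.1 to 3974 intensity units, and 31.2% to 98.0% of spots were well above background. The labels do not say that arrays come from separate animals, so p-values measure the spread between these samples. Week 12 HF20, whose diet entry gives the high fat diet alone, was grouped by its title. Weeks were counted from Day 14. The members and the gene lists were chosen with earlier results of these data known. Named genes were the 9 members, genes of the lists, and the genes most like the mean of the members (10) or like a member (2 each). Alternatives were another background correction, quantile normalization, other filters and probe rules, blocks, weights, covariates, the deposited table, the t-test of the methods, left-out arrays and each left-out time label. The exchange of the Day 14 diets, the removal of HFC Week 12, the fit of shared labels alone, the subsets of time labels, the removal of saturated values and the residuals without titled arrays were added after seeing the data.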

Additional observations from a re-analysis of the deposited data

Results flagged for a closer look

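A single array far from the rest was looked for in the 37 groups of a gene and a diet with 4 to 10 values, which hold LFC and the KAL-1 diets for every gene but HFC for Acacb alone, and 3 groups had such an array, where chance gives about 1 in 20. Acaca on HF75 Week 15 stood at 4.50, against an HF75 median of -0.57. Srebf1 on the same array stood at 5.24, against a median of 2.97. This array is titled BA or BAT, and its 12 adipocyte markers had a mean of 5.15. Thrsp on HF20 Week 15 stood at 2.55, against an HF20 median of 5.78, on the array with 71.4% outlier spots and the lowest adipocyte marker mean (0.82). What part the titles, outlier spots or marker levels have in these values was not tested.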

How the results depend on the processing

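The fitted difference between HFC and LFC kept its sign under all 32 alternatives for Acly, Acaca, Fasn, Me1, Thrsp, Mlxipl, Srebf1 and Pnpla3, and under 25 of 30 for Acacb. It ran from -2.95 to -1.84 for Acly, from -2.29 to -1.53 for Fasn, from -2.66 to -1.45 for Me1 and from -3.00 to -1.13 for Acaca, whose other probes pull the mean of its probes to -1.13. Acly passed the adjusted threshold with array weights (0.000324) and when only probes well above background on all 39 arrays were tested (0.0378), Me1 and Fasn with array weights (both 1.04e-05), and Me1 with the adipocyte mean as a covariate (0.0253). The array weights ran from 0.034 to 12.6, so arrays counted very unequally in the weighted fit.

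Probes called between HFC and LFC numbered 0 in the main analysis, 3 after quantile normalization, 2 with probes well above background on all arrays, 32 with array weights, 9 with the adipocyte covariate, 2 without the titled arrays, 1 with the shared labels alone and 1 with saturated values left out, and 0 to 1 when each time label was left out. HF75 against HFC gave 3 without the titled arrays, and HF75 against LFC 5 with array weights and 0 to 10 over left-out labels, the 10 without Week 15. The dose slope gave 0 to 7 (7 without Week 15), and the time slope 5 after quantile normalization and 0 to 1 over left-out labels. The methods' t-test, with time labels as replicates, gave 1284 probes at an unadjusted p under 0.05 between HFC and LFC and 0 after Benjamini-Hochberg adjustment. The fit on diet alone, with no term for the time label, gave 0 probes and a median over the genes of -1.82.

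The median over the genes was -1.09 with normexp, -1.26 with the adipocyte covariate and -1.17 without the titled arrays, and -2.09 to -1.34 over left-out labels. The genes with lower values at every shared label numbered 2 (Me1, and Fasn with a saturated HFC spot at Week 9), 1 with normexp, 1 with the Day 14 diets exchanged, 6 at the untitled labels and 6 at the labels of 1 scan date, where fewer labels are asked for, and 2 to 5 over left-out labels (5 without Week 9). The median pair correlation was 0.338 after the adipocyte mean and 0.351 within LFC, and 0.603 to 0.676 over left-out labels. The cause of these shifts was not tested. The signal limits Acacb, which was well above background on 17 of 39 arrays.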

Other observations

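Slc2a5, a fructose transporter and the gene closest to Acly (r = 0.817), had a fitted difference between HFC and LFC of -3.57 on the log2 scale. Of the 10 genes most like the mean of the members, 10 had a fitted difference below 0, from -2.57 (Gm7049) to -0.80 (Gm6484). The members themselves set that mean, so this is a description of these arrays.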
